A study of Drosophila melanogaster with 2 samples.

Results

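The genes described here encode 10 insulator and architectural proteins of Drosophila melanogaster: CTCF, su(Hw), mod(mdg4), Cp190, BEAF-32, Dref, M1BP, pita, ZIPIC and Chro. They were taken by symbol from a named list and are 10 of 13945 protein-coding genes in the annotation, and every one of them was found in it. Their own promoters and gene bodies were searched for peaks of CG9705, a cold-shock domain protein, in chromatin immunoprecipitation followed by sequencing (ChIP-seq). The material was whole larvae of the last larval stage, the third instar, wandering ahead of pupation, of strain CG9705-GFP, a transgenic line with GFP fused to the C terminus of CG9705. Both sexes were pooled, the age is given as unknown, and there were 2 biological replicates of 1 group, with no second genotype, stage or treatment. Whole larvae mix many tissues, so a peak cannot be assigned to a cell type, and the labels do not say whether the untagged protein was still present. Peak lists on dm6 were used in 4 forms: 30000 relaxed peaks per replicate, 30000 pooled peaks, and 3533 optimal peaks, which the authors kept by irreproducible discovery rate (IDR), a measure of agreement in rank between replicates. The free-text label of both libraries calls them input controls, but their antibody field names CG9705 and each list was made against 1 separate control, so they are treated here as ChIP samples.

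Insulator proteins bind DNA at the borders between chromatin domains and limit contact between enhancers and promoters on either side. In flies most of the DNA-binding ones are zinc-finger or BED-finger proteins, each with its own sequence motif, and they share cofactors that do not choose the site themselves. Many of their sites lie at promoters of broadly expressed genes, often between a pair of genes transcribed away from each other. CTCF, su(Hw), pita and ZIPIC are zinc-finger proteins that recruit the cofactor Cp190. BEAF-32, Dref and M1BP bind mainly at promoters, BEAF-32 at CGATA, Dref at the DNA replication-related element (DRE) and M1BP at the core promoter motif 1. Cp190 and mod(mdg4) encode cofactors with a BTB domain, and Chro encodes the chromodomain protein Chromator.

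A gene was counted as bound where an optimal summit, the single base the peak caller marked in each peak, lay within 500 bp of one of its annotated transcript starts. By this rule 6 of the 10 genes were bound: Chro, Cp190, Dref, M1BP, BEAF-32 and su(Hw). The share among all protein-coding genes was 19.1% (2661 genes). CTCF, mod(mdg4), pita and ZIPIC were not bound at a start. With the gene body and 2 kb on either side counted, 8 of the 10 genes held 10 optimal summits, against 31.9% of all protein-coding genes with at least 1, and only CTCF and ZIPIC held none. The median length of the 10 genes was 3635.5 bp, against 2166 bp over protein-coding genes, and a longer gene has more room for a summit. The members were named with earlier results of these peaks known, so these counts are described and not tested. When each peak was given to its nearest start alone, 3 of the 10 genes were bound (Cp190, BEAF-32 and Chro), against 13.4% of protein-coding genes. The other 3 dropped out because the Dref, M1BP and su(Hw) summits lay nearer to the start of a neighbour. With a window of 250 bp 4 were bound (Cp190, BEAF-32, Dref and Chro), against 15.6% of protein-coding genes.

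Bases from the peak regions of 5 bound promoters are shown, among them the strongest and the weakest. Each sequence is from the RefSeq Release 6 genome, reads 5′ to 3′ on the minus strand, which is the strand of the named gene, and leaves out transcribed leader sequence. Capitals mark matches to any of 9 motifs searched on both strands: DRE (TATCGATA), its core CGATA (which lies inside the DRE), motif 1 (GGTCACACT), E-box (CAGCTG), CTCF (AGGNGGCGC), su(Hw) core (TGCATACTT), GAGA (GAGAG), Y-box (CCAAT) and motif 7 (CANCNCTA). The first 5 are the bound promoters that share DNA with a divergent protein-coding neighbour, in the order of their peak score. The Chro bases run from the peak's end to the Chro start and leave out the summit. Around that summit a CGATA lay within 50 bp, and no Y-box lay within 100 bp. The Cp190, M1BP and su(Hw) bases lie under the peak, and the Dref bases fill the gap between Dref and RpL13.
Chro (chr3L:22878985-22879087): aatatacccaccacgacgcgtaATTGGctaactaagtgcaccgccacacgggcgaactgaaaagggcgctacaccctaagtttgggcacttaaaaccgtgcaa
Cp190 (chr3R:15275242-15275521): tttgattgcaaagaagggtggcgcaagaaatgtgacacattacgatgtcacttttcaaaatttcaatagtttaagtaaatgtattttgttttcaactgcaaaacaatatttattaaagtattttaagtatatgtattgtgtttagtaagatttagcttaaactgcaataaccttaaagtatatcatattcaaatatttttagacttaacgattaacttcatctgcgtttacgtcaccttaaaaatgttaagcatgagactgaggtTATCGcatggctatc
Dref (chr2L:9967230-9967312): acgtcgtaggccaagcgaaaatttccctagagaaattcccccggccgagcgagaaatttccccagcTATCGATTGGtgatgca
M1BP (chr3R:8731902-8732090): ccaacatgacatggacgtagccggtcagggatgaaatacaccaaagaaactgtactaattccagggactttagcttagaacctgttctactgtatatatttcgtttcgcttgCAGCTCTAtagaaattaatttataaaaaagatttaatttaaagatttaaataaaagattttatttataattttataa
su(Hw) (chr3R:14308756-14309055): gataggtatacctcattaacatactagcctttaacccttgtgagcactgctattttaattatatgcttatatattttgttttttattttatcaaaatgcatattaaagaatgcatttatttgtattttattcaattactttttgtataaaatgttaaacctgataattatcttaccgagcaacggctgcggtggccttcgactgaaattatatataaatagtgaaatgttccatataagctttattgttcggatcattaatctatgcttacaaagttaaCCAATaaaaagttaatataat

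Upstream bases of CTCF and ZIPIC, which held no optimal peak, are shown for contrast. The CTCF stretch holds a full DRE close to the start, overlapping 2 CGATA copies, and the ZIPIC stretch holds 2 CGATA copies.
CTCF (chr3L:7356714-7356913): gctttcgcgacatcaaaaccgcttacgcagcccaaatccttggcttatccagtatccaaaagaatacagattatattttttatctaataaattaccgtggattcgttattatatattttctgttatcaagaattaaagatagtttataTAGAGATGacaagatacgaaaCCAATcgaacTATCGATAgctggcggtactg
ZIPIC (chr3R:30036871-30037002): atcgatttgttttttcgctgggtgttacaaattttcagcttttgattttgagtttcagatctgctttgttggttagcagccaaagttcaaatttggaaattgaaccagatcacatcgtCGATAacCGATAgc

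The strongest peak was at Chro (FBgn0044324, 3L 22873702 to 22878984, minus strand), which encodes a chromodomain protein found at domain borders and on polytene interbands. Its 377 bp peak at 3L 22878711 to 22879087 ranked 45 in the pooled list with a score of 1049.7, above 98.7% of the optimal peaks. The score, deposited by the authors, is the peak caller's signal value on a scale that is not stated. It serves here only to order peaks within 1 list. Replicate 1 ranked the peak 48 and replicate 2 ranked it 40, with summits 14 and −21 bp from the pooled one along the chromosome, so both libraries placed it among their best. Chro has 5 annotated transcripts with 3 distinct starts. The summit lay +84 bp from the outermost start, in the exon of its leader, and −132 bp from the middle start, where negative values are upstream. It was the only optimal summit at a start of these genes that lay downstream of the nearest one.

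Cp190 (FBgn0000283, 3R 15270432 to 15275241, minus strand), which encodes the cofactor that most fly insulator complexes share, came next among the promoters. Its 406 bp peak at 3R 15275183 to 15275588 ranked 67 with a score of 921, and the replicates ranked it 65 and 68. The summit lay −128 bp from the outer of 2 starts, at the same base in replicate 2 and 37 bp away in replicate 1. Among all protein-coding genes, 73 (0.523%) had an optimal peak of rank 67 or better within 500 bp of a start, a limit set after the values were seen, and Chro and Cp190 were the only 2 of the 10. Of the 2661 bound genes, 1.43% had a higher best score than Chro and 2.67% a higher one than Cp190.

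**Figure D1:**
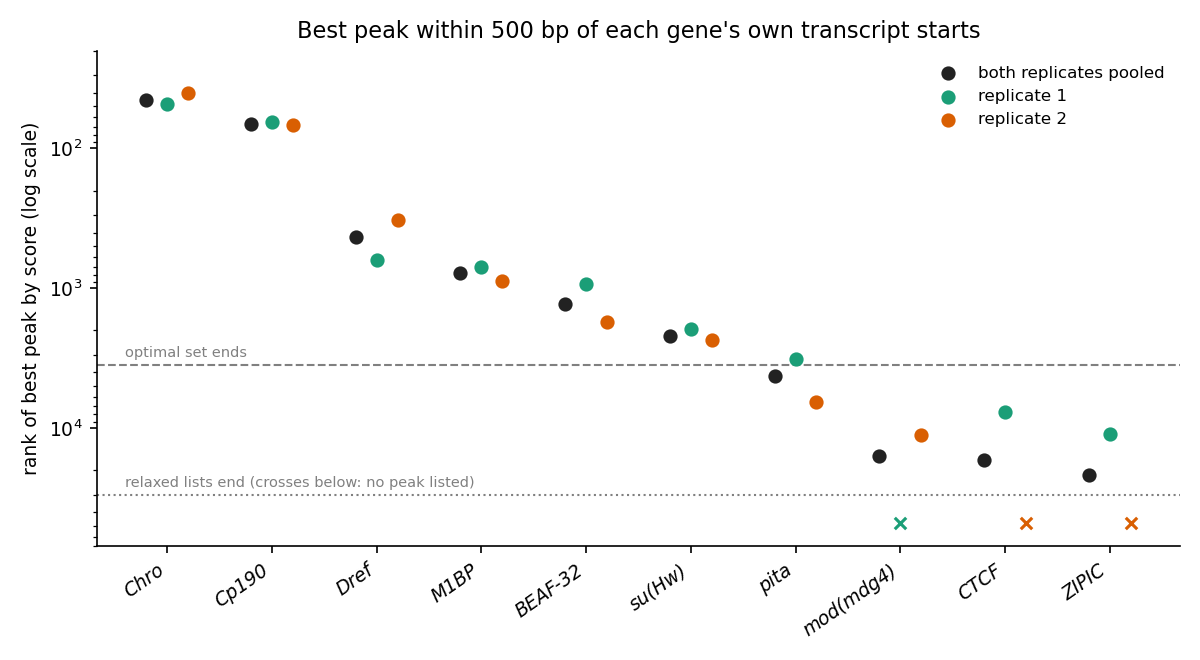
Rank by score of the best peak within 500 bp of each gene's own transcript starts (vertical axis, log scale, best at the top) in the pool and the 2 replicates, with crosses where a list held no such peak. Chro and Cp190 sit between rank 40 and rank 68 in all 3 lists, and mod(mdg4), CTCF and ZIPIC, at pooled ranks of 15748 and beyond, lack a peak in 1 replicate each.

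The genes for promoter-binding proteins formed a middle range. Dref (FBgn0015664, 2L 9964147 to 9967229, minus strand) encodes the BED-finger protein that binds the DRE. Its peak at 2L 9967188 to 9967426 ranked 429 with a score of 405, and the replicates ranked it 632 and 323, with summits within 4 bp of the pooled one at −70 bp. M1BP (FBgn0037621, 3R 8729790 to 8731698, minus strand) encodes the zinc-finger protein that binds motif 1. Its peak at 3R 8731902 to 8732105 ranked 780 with a score of 289, at ranks 707 and 893 in the replicates, and its summit lay −311 bp from the start. M1BP was therefore placed alike by both libraries, while Dref moved more in rank between them.

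BEAF-32 (FBgn0015602, 2R 14770469 to 14772630, plus strand) encodes a BED-finger protein first found at a boundary of the heat shock locus. Its optimal peak at 2R 14770315 to 14770517 ranked 1288 with a score of 209, with the summit −24 bp from the first of 3 starts. The replicates differed here: the peak ranked 926 in replicate 1 and 1741 in replicate 2. Weaker pooled peaks lay at the later starts, at rank 3858 (+70 bp) and rank 5276 (+284 bp). Replicate 2 had both of these later peaks within its best 3533, at ranks 2585 (+74 bp) and 2765 (+288 bp). Replicate 1 had peaks at ranks 8697 (+98 bp from the middle start) and 9802 (+161 bp from the last start), of which only the second had its summit within 100 bp of one of these pooled summits, that of rank 3858. After the first start of BEAF-32, peaks were thus within the best 3533 in replicate 2 alone.

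su(Hw) (FBgn0003567, 3R 14304455 to 14308589, minus strand) encodes the protein that binds the insulator of the gypsy retrotransposon. It had the weakest of the bound promoters, with a 400 bp peak at 3R 14308706 to 14309105 that ranked 2201 with a score of 141. The replicates ranked it 1967 and 2339. Of the 2661 bound genes, 68% had a higher best score, and among the 1766 highest-scoring optimal peaks su(Hw) was no longer bound while the other 5 genes were. A pooled peak at +404 bp, rank 4807, fell short of the optimal set. Across the 6 bound genes the median best score was 347, against 180.0 over all bound genes, and the 6 spanned 141 to 1049.7.

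The 4 unbound genes all had a relaxed pooled peak within 500 bp of a start. This says little by itself, because 53.9% of all protein-coding genes did, and 73.3% had one in the gene or within 2 kb. pita (FBgn0034878, 2R 23548967 to 23554712, minus strand), whose zinc-finger protein binds boundaries of the bithorax complex, came closest. Its pooled peak −16 bp from the inner start ranked 4271 with a score of 84.5, below the lowest optimal score of 98.4. Replicate 1 ranked it 3201, inside its best 3533, and replicate 2 ranked it 6495. By the best 3533 peaks of replicate 1 alone 7 of the 10 genes were bound, pita included, against 18.2% of all protein-coding genes, and by those of replicate 2 alone 6 were, against 19.7%. The outer start of pita had a pooled peak at −227 bp of rank 7312.

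CTCF (FBgn0035769, 3L 7353578 to 7356713, minus strand) encodes the fly form of the insulator protein known from vertebrates. Its only pooled peak ranked 17059 with a score of 29.7 at −310 bp, replicate 1 ranked it 7725, and replicate 2 listed none. ZIPIC (FBgn0039740, 3R 30035240 to 30036870, minus strand), named for the binding of its zinc-finger protein to CP190, had a single pooled peak of rank 21765 and score 25.1 at −237 bp. Replicate 1 ranked that peak 11041 and replicate 2 listed none. In the gene or within 2 kb replicate 1 listed 4 summits for CTCF and 2 for ZIPIC, and replicate 2 listed 0 for either. The start of mod(mdg4) had a pooled peak of rank 15748 at −30 bp and score 31.5, which replicate 2 ranked 11133 at −8 bp and replicate 1 did not list.

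Each of the 6 bound genes had a head-to-head neighbour, defined as a start on the opposite strand 1 to 500 bp upstream of one of its own, and none of the 4 unbound genes had one. Among all protein-coding genes 29.6% (4134) had such a neighbour. Of those, 39.2% were bound, against 10.6% of the 9811 without one, so binding was more frequent beside a head-to-head start over the whole annotation too. With head-to-head starts limited to 250 bp, 3 bound genes had one (Chro, Dref and BEAF-32). No share of all protein-coding genes is given for that limit. With protein-coding partners only, at 500 bp, 5 bound genes had one, because the BEAF-32 partner is noncoding. The nearest upstream protein-coding starts of the unbound genes were those of pst, −3403 bp from CTCF and on the same strand, tin, −1576 bp from mod(mdg4) and divergent, Rrp4, −1505 bp from pita on the same strand, and ocn, −860 bp from ZIPIC on the same strand.

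**Figure D2:**
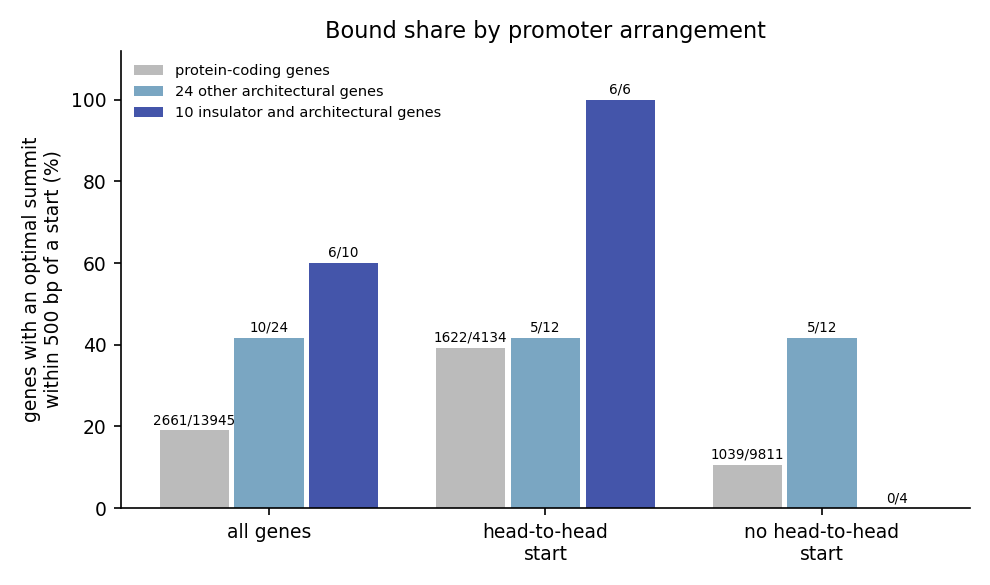
Share of genes with an optimal summit within 500 bp of a start (vertical axis, percent) for all genes and for those with and without a head-to-head start, with counts above the bars, in all protein-coding genes, the 24 other architectural genes and the 10 genes described here. The 10 genes reach 6 of 6 with such a start and 0 of 4 without, beside 39.2% and 10.6% of protein-coding genes.

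All 6 neighbours were bound by the same rule, since each summit lay within 500 bp of both starts. Chro lies 105 bp from Ssl1, which encodes a subunit of the transcription factor TFIIH, and its summit was −189 bp from the Ssl1 start. The gap between Cp190 and CG4338 is 281 bp, and the summit sat near its middle, −128 bp from Cp190 and −153 bp from CG4338. Dref and RpL13, a ribosomal protein gene, are 84 bp apart, with the summit −70 bp from Dref and −14 bp from RpL13. The summit thus lay closer to RpL13 than to Dref. M1BP and CG8202 are 393 bp apart with the summit at −311 and −82 bp. The su(Hw) start and that of Polr2I, an RNA polymerase II subunit gene, are 500 bp apart, the limit of the rule, with the summit at −317 and −183 bp. BEAF-32 shares 199 bp with the antisense noncoding gene asRNA:CR42254, and its summit was at −24 and −175 bp. In 5 of the 6 pairs the summit fell between the 2 starts, and the Chro summit fell between the middle Chro start and Ssl1.

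**Figure D3:**
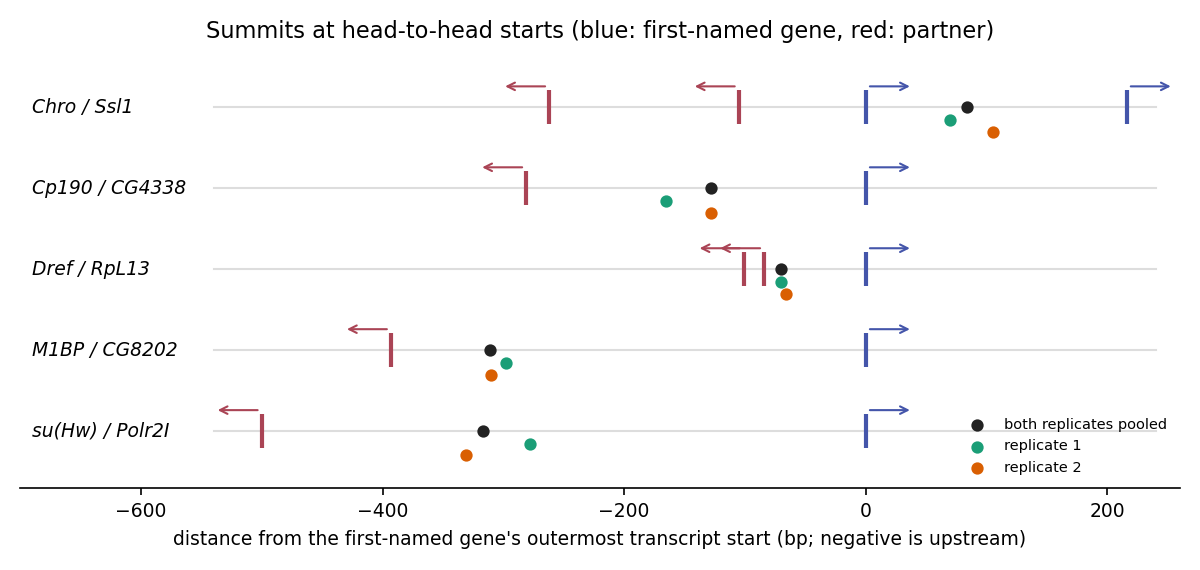
Positions of summits of the pool and the replicates (points) between a gene's start (blue, at 0, arrow in the direction of transcription) and its divergent protein-coding neighbour (red), in bp along the horizontal axis. Summits of Dref and M1BP lie next to the neighbour's start, the Cp190 summit at −128 bp lies near the middle of its gap, and the Chro summit at +84 bp lies past the outermost Chro start.

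In mod(mdg4) the peaks lay away from the start of the gene. The gene (FBgn0002781, 3R 21350846 to 21377401, minus strand) spans 26556 bp and has 22 annotated transcripts that share 1 start, and its isoforms differ in their last exons. Those exons are joined to the common part by trans-splicing, and the annotation lists 23 separate precursor genes (named pre-mod(mdg4)-B, pre-mod(mdg4)-C and so on) inside it, 14 on the same strand and 9 on the opposite one, with 7 distinct starts. Of the optimal summits 3 lay in mod(mdg4) or within 2 kb, more than in any other of the 10 genes, and 2.45% of all protein-coding genes (341) had 3 or more. A pair of sequences from the middle of the gene are shown because the intronic peaks lie at precursor starts: the first fills the space between the start of a pre-mod(mdg4)-E transcript and the divergent start beside the summit of rank 50, and the second lies under the peak of rank 989. Neither printed stretch holds one of the 9 motifs, but the first leaves out the summit itself. A Y-box lay within 100 bp of both summits, outside the printed bases.
mod(mdg4), rank 50 (chr3R:21365489-21365608): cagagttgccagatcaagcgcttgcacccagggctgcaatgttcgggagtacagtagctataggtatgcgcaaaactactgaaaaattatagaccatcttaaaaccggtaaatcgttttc
mod(mdg4), rank 989 (chr3R:21373576-21373689): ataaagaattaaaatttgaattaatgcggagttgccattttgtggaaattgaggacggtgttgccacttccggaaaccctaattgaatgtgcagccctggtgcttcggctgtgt

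The strongest of the 3 ranked 50 in the pooled list, with a score of 1022 and a 415 bp interval at 3R 21365220 to 21365634, and the replicates ranked it 49 and 50. Its summit lay 11961 bp into the gene, in an intron of the common transcripts. It fell between divergent precursor starts, −169 bp from the plus-strand start of pre-mod(mdg4)-U, V, W, X, Y, AD and AE and −150 bp from the minus-strand start of C, E and AB. The replicate summits were −171 and −144 bp from the first of these and −148 and −175 bp from the second, so both libraries placed it between the same pair. It also lay 48 bp downstream of the second start annotated for E.

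The peak of rank 989 (score 249, 3R 21373496 to 21373689) lay 3810 bp into the gene and −16 bp from the shared start of the precursors N, AA and O, at −36 and −17 bp in the replicates, which ranked it 1475 and 762. The third optimal peak, rank 228 with a score of 532 at 3R 21378612 to 21378906, lay −1354 bp from the mod(mdg4) start. It was −222 bp from the start of tin, the homeobox gene tinman needed to form the heart, which is transcribed away from mod(mdg4). Replicates ranked it 207 and 277. Of the 23 precursor genes 13 had an optimal summit within 500 bp of a start and all 23 had a relaxed pooled one, but they share 7 starts and are not 23 independent promoters. The starts furthest from that of mod(mdg4) are shared by T and Z and by B, G, H, I, J, K, L and P. A pooled peak of rank 17315 (score 29.5) lay −54 bp from the T and Z start and −354 bp from the other. The pooled peak of rank 17135 (score 29.7) lay +490 bp from the T and Z start. The 18 pooled peaks in mod(mdg4) or within 2 kb had scores from 21.9 to 1022 with a median of 45.0.

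**Figure D4:**
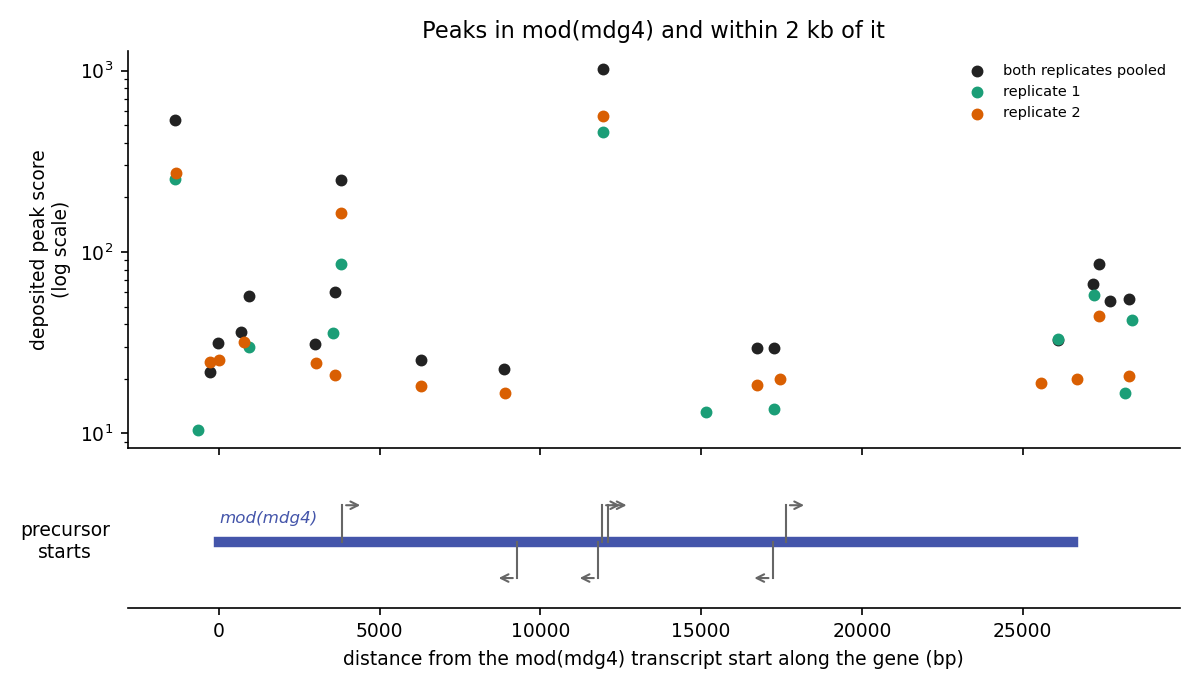
Deposited score (log scale) of every peak in mod(mdg4) or within 2 kb, by distance from its transcript start in bp, for the pooled list and each replicate, above a map of the gene (bar) and the starts of its precursor genes (arrows). The tallest point in each list lies at or beside 11961 bp into the gene, between divergent precursor starts, and within 500 bp of the mod(mdg4) start the best peak scores 31.5 in the pool and 25.4 in replicate 2, with none in replicate 1.

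By class, the 10 optimal summits lay upstream of the gene (6), downstream of it (1), in an intron (2) and in an exon outside the coding sequence (1), and 0 lay in a coding exon. These classes were not counted over all optimal peaks, so they do not set the genes apart from other peaks. The downstream one is the only optimal peak assigned to pita. It ranked 1702 with a score of 172 and 2008 and 1422 in the replicates, and its summit was 25 bp from the start of wmd and near that of levy, a gene for a subunit of cytochrome c oxidase. All 10 were found among the best 3533 peaks of both replicates with summits within 100 bp, as were 2631 (74.5%) of the optimal set as a whole. The pita peak met this rule in replicate 1 only at its limit. There the summit was 100 bp from the pooled one and nearest to levy, at −13 bp. The optimal set was drawn from these replicates, so the matches describe how steady the peaks were and add no independent evidence. Median summit displacement was 11 bp for these peaks and 11 bp for all optimal peaks. It was taken over matches within 100 bp in the relaxed replicate lists, so larger shifts were left out by construction.

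The summits in these genes were searched for motifs, several of which these proteins bind, and the counts are given beside the shares over all optimal windows and all protein-coding starts. Within 100 bp of the 10 optimal summits the DRE was found in 1 window, against 5.01% of the optimal windows and 6.45% of the starts. That window was the peak of rank 1702 at the start of wmd, downstream of pita, which also held CGATA, a Y-box and motif 7. CGATA was in 3 (32.1% and 37.1%), the Y-box in 4 (31.5% and 33.3%), motif 7 in 3 (12.1% and 11%) and the E-box in 1 (8.97% and 13.4%). Motif 1 (2.04% and 4.42%), the CTCF motif (1.13% and 0.416%), the su(Hw) core (0.651% and 0.192%) and GAGA (21.3% and 25%) were in 0 of 10. With 10 windows these counts do not set the genes apart from other peaks. The windows held a median of 32.6% G and C, between 22.9% and 42.8%, against 34.8% over all optimal windows. A match is a run of letters and not a measured site.

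Around the genes' own starts the DRE was more frequent. Within 100 bp of a start it was present in 4 of the 10 genes, against 8.49% of protein-coding genes. Those were Cp190, the only bound gene of the 4, and CTCF, mod(mdg4) and pita, which were not bound. At Cp190 it spanned the outer start, from −4 to +3 bp, only partly inside the bases printed above, and a second copy lay at −21 to −14 bp of the inner start. At CTCF it lay at −21 to −14 bp, at mod(mdg4) at −54 to −47 bp and at the outer start of pita at −68 to −61 bp. Over the annotation the DRE was within 100 bp of a start in 13.8% of bound and 7.23% of unbound protein-coding genes. Of the 10 genes, 1 of the 6 bound and 3 of the 4 unbound had one. CGATA, which lies inside the DRE, was there in 9 of the 10 genes, 5 of the 6 bound and all 4 unbound. Over the annotation it was in 44.7% of protein-coding genes, 58.5% of the bound and 41.4% of the unbound ones. The Y-box was in 5 (40.9% of protein-coding genes), the E-box in 2 (17.4%), GAGA in 2 (28.7%) and motif 7 in 1 (14.3%). The CTCF motif (0.567%) and the su(Hw) core (0.251%) were in 0 of 10. Motif 1 was at su(Hw), +5 to +13 bp, and at ZIPIC, +28 to +36 bp, against 5.85% of protein-coding genes, and M1BP itself held none of the 9 motifs there. These searches at own starts were added after the peak values were seen.

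A second list of 24 architectural genes that are not among the 10 covered other insulator proteins, cohesin, condensin and their partners. By the same rule 10 of the 24 were bound, against 19.1% of all protein-coding genes. The list was chosen from knowledge of the field, with earlier results of these peaks known. The best placed was row, at rank 493 with a score of 377 and a summit at −86 bp, ranked 467 and 507 by the replicates. pzg, which encodes Z4, a binding partner of Chromator, ranked 648 with a score of 321 at −150 bp, though replicate 1 ranked it 1306 and replicate 2 ranked it 410. Trl, the gene of the GAGA factor, ranked 1022 (score 244, +120 bp), the cohesin subunit gene SA ranked 1283 (score 209, −77 bp) and the condensin II gene Cap-H2 ranked 1683 (score 173, −186 bp). SMC1, fs(1)h, gfzf, JIL-1 and Clamp were also bound, at ranks from 1798 to 2992. By the best 3533 peaks of each replicate, fs(1)h and Clamp were bound in replicate 2 but not in replicate 1. The Clamp summit lay at +490 bp, near the edge of the window. None of the 24 had a peak of rank 67 or better at a start. In this list 5 of 12 genes with a head-to-head start were bound, against 39.2% of such protein-coding genes. Without one 5 of 12 were bound, against 10.6%.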

How the data were processed

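ChIP-seq peak lists from 2 biological replicates of whole CG9705-GFP larvae were used. The notes deposited with the files describe narrowPeak lists on dm6, made by the authors from 1 or both alignments with 1 control alignment. Per the labels chromatin was sonicated to 200 to 800 bp. The IDR threshold, aligner and caller are not given in the sources used. The deposited score is the caller's signal value, of unstated scale. The deposited −log10 q value reaches its highest value in 2929 pooled peaks, so ranks came from the score, within each list. The 3533 optimal peaks were those with the highest pooled scores. The summit offset, another deposited column, was added to the peak start, and coordinates are 1-based. The files hold no read counts, so depth is unknown and no interval is given.

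Ensembl release 115, without transposable elements, gave the genes and 23998 transcript starts. RefSeq Release 6, the same assembly as dm6, gave the sequences. SA was matched as SA1 through RefSeq synonyms. Replicate peaks matched an optimal peak with summits within 100 bp. With 1 group and members chosen with earlier results of these data known, as were the second list and the motifs, no p-value was computed. Counts stand beside the share of all protein-coding genes. The text names the 10 genes, protein-coding genes with a start within 500 bp of their optimal summits at a start, and bound genes of the second list, with values for the 5 of highest score. Other named genes (asRNA:CR42254, tin, wmd, levy, pst, Rrp4, ocn, woc and the precursors) were chosen after values were seen. In simulated data 300 of 300 planted summits inside the window and 0 of 300 outside were called, and 200 of 200 planted motifs were found. Python 3.11.15, numpy 2.4.6, pandas 2.3.3 and matplotlib 3.10.9 were used.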

Additional observations from a re-analysis of the deposited data

How the results depend on the processing

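Of 40 recomputed values, 32 stayed within 1.5 times their main value and 8 did not. Counting all relaxed pooled peaks raised the bound genes from 6 to 10 of 10 and those of the second list from 10 to 20 of 24. The share of all protein-coding genes was then 53.9%. Giving each peak to its nearest start lowered the 6 to 3, against 13.4% of protein-coding genes. A 250 bp window lowered it, within 1.5 times, to 4, without M1BP and su(Hw), against 15.6%. The 1766 highest-scoring optimal peaks left 5 genes of the second list bound, against 10.6% of protein-coding genes. Without the 2 kb flanks, 2 of the 10 genes held 3 optimal summits in place of 8 genes and 10 summits. With head-to-head starts within 250 bp, 3 bound genes had one in place of 6. For these 2 settings no share of all protein-coding genes is given, so the counts cannot be set against the annotation. With 50 bp around a summit in place of 100, motif matches (windows summed over motifs) fell to 4 from 12. Each of these settings counts other peaks, starts or bases by its construction, and no further cause was tested. Leaving out 1 replicate gave 6 to 7 bound genes, 8 to 11 of the second list, 8 genes with 12 summits, 5 to 6 upstream summits and 6 bound head-to-head genes. No paired analysis was possible because there is 1 group. Depth is unknown, so absence from a list is not absence of binding.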

Other observations

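Among the relaxed pooled peaks, 50 summits lay in the 10 genes or within 2 kb: 17 upstream, 12 downstream, 13 in introns, 3 in exons outside the coding sequence and 5 in coding exons. At the starts 12 of 16 relaxed pooled summits lay upstream, as did 5 of 6 optimal ones. Neither the classes nor the upstream share were counted over all peaks, so no preference particular to these genes can be read from them. Trl, the gene of the GAGA factor, was the only one of the 24 further architectural genes with 3 or more optimal summits in the gene or within 2 kb, with 4. woc, from the same list, was bound by the best 3533 peaks of replicate 2 and neither by those of replicate 1 nor by the optimal set.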
